A study of Homo sapiens with 16 samples.

Results

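Control Jurkat cells were compared with control HSB-2 cells, which are established cell lines of T-lineage acute lymphoblastic leukemia (T-ALL), to see which lineage, receptor, oncogene and signalling genes separated the lines before any knock-down of USP7. The comparison used 8 of the 16 samples of the series: 2 wild-type and 2 scrambled samples of Jurkat, and 2 wild-type and 2 scrambled samples of HSB-2. The labels give the genotype of both lines as TAL1+. Wild-type cells had no treatment label. The scrambled samples are labelled as treated with a scrambled siRNA, while the design text of the series names an shRNA scramble, and the methods describe sorting on GFP or puromycin selection for cells given USP7 shRNA without saying it of the scrambled cells. The other 8 samples carried shRNA against USP7 and were not used. Of 57820 genes in the count table, 18914 passed the filter on low counts and lay outside chromosomes X and Y, and these were compared. Each side of the comparison is a single cell line, so a difference describes these lines and not classes of leukemia. The labels do not say whether replicates came from separate cultures, so the p-values measure the spread between these samples, which may be technical. No batch is labelled, and a batch that went with the line cannot be told apart from the line.

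T-ALL arises from thymocytes, which rearrange their T-cell receptor (TCR) genes with the RAG1 and RAG2 recombinase, pass a checkpoint with the pre-TCR (a TCR beta chain paired with the PTCRA chain), and carry CD4, CD8 and CD1 molecules on their surface while they are in the thymic cortex. E proteins such as TCF3 (E2A) and TCF12 (HEB) switch on many of these genes. TAL1, a basic helix-loop-helix factor that is normally silenced in thymocytes, pairs with E proteins and binds with LMO1 or LMO2, LDB1, GATA3, RUNX1 and MYB when it is reactivated in leukemia. NOTCH1, cytokine receptors with their JAK and STAT partners, the RAS-MAPK cascade and the PI3K-AKT pathway supply growth signals to these cells.

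Total counts lay between 86.9 and 110.3 M in Jurkat and between 99.2 and 235.5 M in HSB-2, with means of 99.0 ± 9.82 and 174.7 ± 56.4 M (SD, n = 4 each; exact permutation test, 2-sided, p = 0.0857, where 0.0286 is the smallest p possible). Levels are given as CPM, counts scaled to library size with TMM factors. A line at 0 counts was set to 3 counts per sample, worth 0.0128 to 0.0332 CPM depending on the sample. That floor is a setting and not a hard limit, and it covers counting error only. Folds given below as at least a value are taken against that floor. CPM is not divided by gene length, so levels are compared between lines and not between genes. Differences are log2 values of Jurkat minus HSB-2. A gene was called when its adjusted p was under 0.05 and its fitted change was at least 2-fold. In bulk RNA, fewer cells that express a gene and less RNA per cell cannot be told apart.

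Of the 18914 genes, 13052 (69.0%) had an adjusted p under 0.05, and 6042 (31.9%) were called: 3080 (16.3%) higher in Jurkat and 2962 (15.7%) higher in HSB-2. The median difference over all tested genes was 0.002. In 5813 of the called genes, the 4 Jurkat and the 4 HSB-2 values did not overlap, as was also the case for 12340 of all tested genes. In wild-type samples alone and in scrambled samples alone, 4962 of the 6042 were called in the same direction. Many calls were between a transcribed and a nearly silent gene: 436 genes called higher in Jurkat had at most 3 counts in each HSB-2 sample, and 293 genes called higher in HSB-2 had at most 3 in each Jurkat sample. Such genes passed the filter through 1 line and had to differ. The same holds below for genes with few reads in 1 line, such as RAG2, CD8B, IL7R, TRAV8-4 and SYK. Their adjusted p-values are no support beyond the reads themselves. The shares of called genes above are the background against which counts within gene lists are read below.

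Some receptor gene segments were read in 1 line and not in the other, while others, such as TRGV3 and TRBV28, were read in both. The table held 209 segments that could be matched by ID. The sequences of the matched germline V segments with the most reads of their locus in either line are shown here for TRAV, TRBV and TRGV. Each is the last V exon in the genome build of the counts, or its final 300 bases, and the 20 bases in capitals are its 3′ end, the side on which a V segment is joined to a D or J segment.
TRAV8-4, chr14:22362916-22363210, GRCh37, plus strand: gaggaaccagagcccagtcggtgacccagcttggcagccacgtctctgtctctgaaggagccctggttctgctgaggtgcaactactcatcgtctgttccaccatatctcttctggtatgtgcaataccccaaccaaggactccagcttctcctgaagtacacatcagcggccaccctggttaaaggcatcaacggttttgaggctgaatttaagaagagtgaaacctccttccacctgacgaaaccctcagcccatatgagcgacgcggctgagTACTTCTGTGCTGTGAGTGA
TRBV5-1, chr7:142021070-142021363, GRCh37, plus strand: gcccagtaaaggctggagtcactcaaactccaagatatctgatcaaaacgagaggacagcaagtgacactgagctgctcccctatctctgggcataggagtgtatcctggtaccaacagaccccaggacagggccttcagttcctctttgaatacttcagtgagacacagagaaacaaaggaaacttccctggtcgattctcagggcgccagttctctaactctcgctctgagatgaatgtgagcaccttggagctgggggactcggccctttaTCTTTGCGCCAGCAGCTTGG
TRGV10, chr7:38339412-38339711, GRCh37, minus strand: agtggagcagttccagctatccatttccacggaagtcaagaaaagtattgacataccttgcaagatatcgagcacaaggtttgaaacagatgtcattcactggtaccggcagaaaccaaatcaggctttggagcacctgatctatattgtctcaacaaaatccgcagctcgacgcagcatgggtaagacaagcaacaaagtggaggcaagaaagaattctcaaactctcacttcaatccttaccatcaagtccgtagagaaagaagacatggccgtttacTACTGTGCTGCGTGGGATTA

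TRAV8-4 was measured at 30.4 and 31.4 CPM in wild-type and 42.2 and 43.1 CPM in scrambled Jurkat cells and at 0.0171 and 0 CPM in wild-type and 0 and 0 CPM in scrambled HSB-2 cells (log2 difference 12.45, adjusted p = 1.19e-09). TRBV5-1 was measured at 0 CPM in each Jurkat sample and at 318 and 318 CPM in wild-type and 295 and 313 CPM in scrambled HSB-2 cells. TRGV10 was measured at 0 CPM in each Jurkat sample and at 103 and 108 CPM in wild-type and 105 and 103 CPM in scrambled HSB-2 cells. The segments named here were chosen after their values were seen. Of the segments shown, the alpha one was thus read in Jurkat and the beta and gamma ones in HSB-2, without overlap. They do not name every receptor chain of a line, as TRBC2 was read in both. TRGV9 followed TRGV10 (0.1302 ± 0.0469 CPM in Jurkat against 43.4 ± 3.79 CPM in HSB-2), and TRDV1 was listed at 0 counts in Jurkat and at 0.777 ± 0.155 CPM in HSB-2. Among other alpha segments, TRAV22 had reads only in HSB-2 among these samples (4.41 ± 1.27 CPM). The constant regions gave the same picture for gamma and another for beta. TRGC2 was measured at 8.16 and 6.98 CPM in wild-type and 2.15 and 2.54 CPM in scrambled Jurkat cells and at 275 and 282 CPM in wild-type and 278 and 263 CPM in scrambled HSB-2 cells (log2 difference -5.78, SE 0.42, adjusted p = 1.02e-06). TRGC1 differed by -4.61. TRBC2, which both lines transcribed, was 466 ± 27.0 CPM in Jurkat and 568 ± 27.9 CPM in HSB-2 (log2 difference -0.29, SE 0.06, adjusted p = 0.00284) and was not called at 2-fold. TRAC and TRBC1 could not be matched to a symbol by ID and were not analysed here, and V segments without a matched ID were not examined. Summed over the matched TRBV segments the level was 10.9 ± 2.08 CPM in Jurkat and 312 ± 10.97 CPM in HSB-2, and the segment with the most reads among them in Jurkat was TRBV28 at 3.72 ± 0.9200 CPM. Near-identical V segments share reads, so a low level of a single segment is uncertain.

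**Figure D1:**
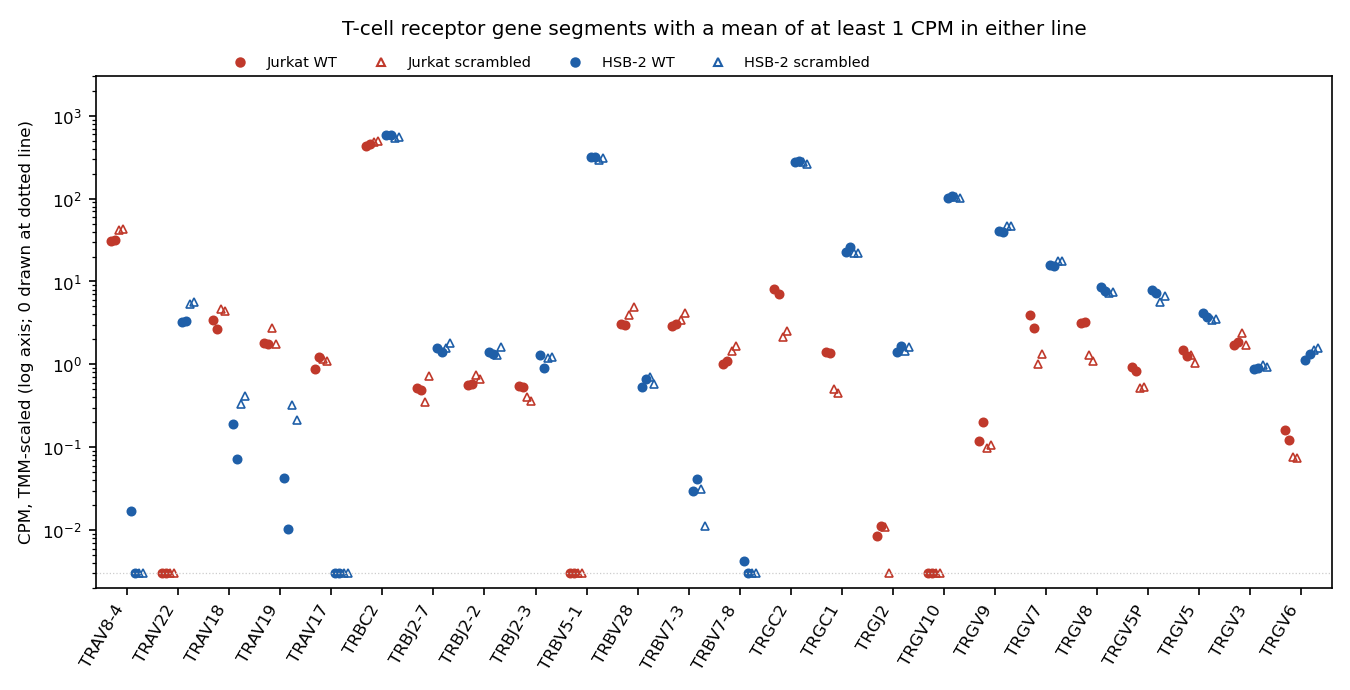
CPM (log axis, with 0 drawn at the dotted line) of the 24 matched T-cell receptor segments with a mean of at least 1 CPM in either line, 1 point per sample, red for Jurkat and blue for HSB-2, filled circles for wild-type and open triangles for scrambled. TRAV8-4 was read in Jurkat, TRBV5-1, TRGV10 and TRGC2 lay far higher in HSB-2, and TRBC2 was close in both lines.

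The signalling chains of the receptor were present in both lines, at a somewhat higher level in Jurkat. CD3E was measured at 539 and 549.6 CPM in wild-type and 599.7 and 627 CPM in scrambled Jurkat cells and at 329 and 326 CPM in wild-type and 283 and 299.5 CPM in scrambled HSB-2 cells (log2 difference 0.90, SE 0.07, adjusted p = 2.49e-06), under the 2-fold limit. CD3D (1.22) and CD3G (1.01) were called higher in Jurkat, but fell under 2-fold in wild-type samples only (0.77 and 0.76), and CD3G also without either scrambled replicate of HSB-2 (0.93 and 0.95) or of Jurkat (0.996 and 0.97), and CD247, the zeta chain, differed by 0.57. Of 8 tested genes for TCR chains and CD3, 3 were higher in Jurkat, 2 were higher in HSB-2 and 3 were not called. The share called in this short list was 62.5%, against 31.9% over all genes. LCK, the Src-family kinase that phosphorylates the CD3 chains, went the other way. It was measured at 644 and 667 CPM in wild-type and 743 and 742 CPM in scrambled Jurkat cells and at 1438 and 1450 CPM in wild-type and 1277 and 1326 CPM in scrambled HSB-2 cells (log2 difference -0.97, SE 0.08, adjusted p = 1.85e-06), also just under 2-fold and without overlap. ZAP70, which docks on phosphorylated CD3 chains, was 326 ± 9.58 CPM in Jurkat against 167 ± 27.03 CPM in HSB-2 (0.96), and FYN differed by -0.39. Of the 30 genes for proximal TCR signalling, 6 were higher in Jurkat and 3 in HSB-2, shares of called genes (30.0%) near the background. Those in Jurkat were led by THEMIS (3.84), a regulator of thymocyte selection, and the adaptors FYB1 (3.02), SKAP1 (2.82) and SLA (2.08). Those in HSB-2 were the adaptor LCP2 (-1.29), the diacylglycerol kinase DGKA (-1.11) and the phosphatase UBASH3B (-1.02), which fell under 2-fold in scrambled samples only (-0.87), without either wild-type replicate of HSB-2 (-0.94 and -0.95) and without either scrambled replicate of Jurkat (-0.99 in both). LAT, the membrane adaptor, differed by -0.61 (adjusted p = 0.0204), and lost its adjusted p under 0.05 without the first Jurkat scrambled replicate (0.0550) or the first HSB-2 wild-type replicate (0.0539).

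Receptor gene recombination separated the lines. Of 15 tested genes of that list, 9 were higher in Jurkat, 1 in HSB-2 and 5 were not called (median difference 2.25, against 0.002 over all genes). The share called was 66.7%, against 31.9% over all genes. DNTT, the polymerase that adds bases at junctions, was measured at 222 and 219 CPM in wild-type and 221 and 218 CPM in scrambled Jurkat cells and at 0.145 and 0.0103 CPM in wild-type and 0.0209 and 0.0390 CPM in scrambled HSB-2 cells (log2 difference 11.72, SE 0.32, adjusted p = 8.31e-10). RAG1 was measured at 21.2 and 20.6 CPM in wild-type and 26.1 and 25.4 CPM in scrambled Jurkat cells and at 0.0899 and 0.0822 CPM in wild-type and 0.1303 and 0.0390 CPM in scrambled HSB-2 cells (log2 difference 8.06, SE 0.24, adjusted p = 1.57e-09). RAG2 was measured at 11.2 and 10.3 CPM in wild-type and 9.76 and 10.4 CPM in scrambled Jurkat cells and at 0 and 0 CPM in wild-type and 0.0209 and 0 CPM in scrambled HSB-2 cells (log2 difference 10.62, SE 0.41, adjusted p = 1.06e-08). The Jurkat values of DNTT, RAG1 and RAG2 did not overlap the HSB-2 values. RAG1 and RAG2 overlap each other on opposite strands in the annotation, and the strand setting of the counting is not given in the sources used here, so their reads may not be fully divided. PTCRA was measured at 1.22 and 1.33 CPM in wild-type and 1.25 and 1.08 CPM in scrambled Jurkat cells and at 0 and 0 CPM in wild-type and 0 and 0.00557 CPM in scrambled HSB-2 cells, that is 481 counts against 1, a CPM ratio of 854, exact 95% counting interval 153 to 33810. The surrogate light chain gene VPREB1, which shares the list, was at 81 counts against 3 (a CPM ratio of 47.95, exact 95% counting interval 15.8 to 237). NHEJ1, a DNA end-joining factor, was the member higher in HSB-2 (0.137 ± 0.0655 CPM in Jurkat against 0.459 ± 0.0534 CPM in HSB-2).

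The promoter of PTCRA is shown because E proteins are known to act on it and because its gene moved with the recombination genes. The capitals mark each match to the E-box letters CAGNTG on either strand, in the window from 250 bases before to 50 bases after the RefSeq start.
PTCRA, chr6:42915803-42916102, GRCh38.p14, plus strand: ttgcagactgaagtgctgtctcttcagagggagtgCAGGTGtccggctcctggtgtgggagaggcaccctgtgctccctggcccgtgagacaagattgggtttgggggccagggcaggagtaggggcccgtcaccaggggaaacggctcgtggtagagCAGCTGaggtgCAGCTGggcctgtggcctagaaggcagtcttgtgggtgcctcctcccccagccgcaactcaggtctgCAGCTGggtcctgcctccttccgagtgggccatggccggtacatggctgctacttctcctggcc
The window held 4 matches. Over all 35116 RefSeq windows of the same length, 49.9% held at least 1 match, with a mean of 0.745. Of the recombination and CD1 genes RAG1, RAG2, PTCRA, DNTT, CD1A, CD1C, CD1D and CD1E, each called higher in Jurkat and present in the table of windows, 6 of 8 held a match. A gene counted if any of its windows held a match, and CD1A and CD1D had more than 1 window. The 49.9% is a share of single windows, so these shares are not like for like. They are a description of letters, and binding was not measured here.

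Several surface molecules of thymocytes were lower in HSB-2 than in Jurkat. CD1E, a lipid antigen-presenting molecule of the CD1 family, was measured at 339.5 and 336 CPM in wild-type and 268 and 263 CPM in scrambled Jurkat cells and at 0.0728 and 0.0103 CPM in wild-type and 0 and 0.0334 CPM in scrambled HSB-2 cells (log2 difference 13.08, SE 0.33, adjusted p = 5.41e-10). CD1B (39.04 ± 1.38 CPM in Jurkat against 0.0331 ± 0.0224 CPM in HSB-2) and CD1D (34.2 ± 0.834 CPM in Jurkat against 0.0395 ± 0.0190 CPM in HSB-2) also fell near the floor in HSB-2. CD1A did not: it was measured at 71.3 and 71.6 CPM in wild-type and 63.7 and 66.1 CPM in scrambled Jurkat cells and at 8.01 and 7.27 CPM in wild-type and 4.499 and 4.15 CPM in scrambled HSB-2 cells (log2 difference 3.51, SE 0.21, adjusted p = 2.29e-07). CD1A was thus lower in HSB-2 than in Jurkat but stayed far above the floor there. The coreceptor CD4 was measured at 19.99 and 21.2 CPM in wild-type and 29.4 and 29.5 CPM in scrambled Jurkat cells and at 0.124 and 0.0822 CPM in wild-type and 0.1199 and 0.156 CPM in scrambled HSB-2 cells (log2 difference 7.64, SE 0.22, adjusted p = 1.13e-09). CD8B, a chain of the other coreceptor, was measured at 1.96 and 1.91 CPM in wild-type and 1.23 and 1.73 CPM in scrambled Jurkat cells and at 0 and 0 CPM in wild-type and 0.0209 and 0 CPM in scrambled HSB-2 cells (log2 difference 8.02, SE 0.56, adjusted p = 6.88e-07). CD8A was at most 2.73 CPM in any sample and its difference of -0.69 did not pass the test (adjusted p = 0.301). CD28, the costimulatory receptor, was measured at 185 and 181 CPM in wild-type and 158 and 157 CPM in scrambled Jurkat cells and at 0.372 and 0.401 CPM in wild-type and 0.0521 and 0.0446 CPM in scrambled HSB-2 cells (log2 difference 9.69, SE 0.46, adjusted p = 4.08e-08). CD2, an adhesion receptor of T cells, was measured at 111 and 109 CPM in wild-type and 109 and 117 CPM in scrambled Jurkat cells and at 3.78 and 2.97 CPM in wild-type and 0.798 and 0.769 CPM in scrambled HSB-2 cells (log2 difference 5.75, SE 0.51, adjusted p = 4.12e-06). In HSB-2, CD28 and CD2 were both lower in scrambled than in wild-type cells.

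Of the 32 tested surface and coreceptor genes, 16 were higher in Jurkat, 7 in HSB-2 and 9 were not called. The share called was 71.9%, against 31.9% over all genes. Genes called higher in HSB-2 included ICOS, an inducible costimulator, measured at 0.825 and 0.531 CPM in wild-type and 0.831 and 1.002 CPM in scrambled Jurkat cells and at 12.4 and 12.6 CPM in wild-type and 11.9 and 10.8 CPM in scrambled HSB-2 cells (log2 difference -3.90, SE 0.18, adjusted p = 2.87e-08). The inhibitory receptors HAVCR2 (-2.24) and LAG3 (-2.15) and the adhesion receptors CD96 (-1.85) and CD6 (-1.55) were also called there. The pan-T antigens CD5 and CD7 were high in both lines: CD5 was 134 ± 3.505 CPM in Jurkat against 165 ± 21.3 CPM in HSB-2 (-0.30) and CD7 was 114 ± 15.6 CPM in Jurkat against 208 ± 24.8 CPM in HSB-2 (-0.87). Of the 16 tested T-lineage markers, 6 were higher in Jurkat (CD28, CD2, TCF7, CD3D, GATA3 and CD3G) and 1, CD6, in HSB-2, and their summed level was 4251 to 4621 CPM in Jurkat and 3548 to 4171 CPM in HSB-2. CD3E, CD5, CD7 and LCK were read in both lines without a 2-fold call, while CD28 and CD2 were far lower in HSB-2.

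**Figure D2:**
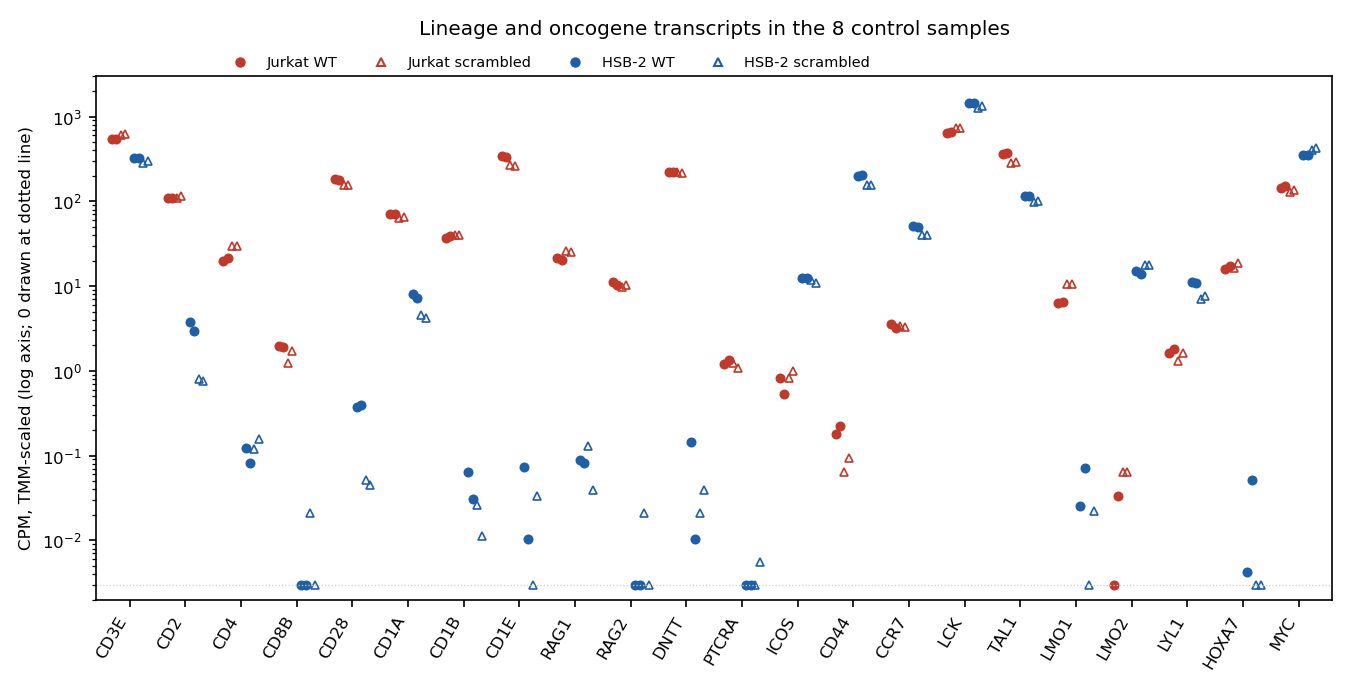
CPM (log axis, with 0 drawn at the dotted line) of 22 lineage and oncogene transcripts in each control sample, red for Jurkat and blue for HSB-2, filled circles for wild-type and open triangles for scrambled. CD3E, LCK, TAL1 and MYC were high in both lines, whereas CD1B, CD1E, RAG2, DNTT, PTCRA, LMO1 and HOXA7 were near the floor in HSB-2 and LMO2 and CD44 were near it in Jurkat.

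Among 43 T-lineage transcription factors, 14 were higher in Jurkat, 6 in HSB-2 and 23 were not called. The share called was 46.5%, against 31.9% over all genes. The E protein TCF12 was measured at 360.5 and 349.6 CPM in wild-type and 331 and 335 CPM in scrambled Jurkat cells and at 114 and 115 CPM in wild-type and 109 and 108 CPM in scrambled HSB-2 cells (log2 difference 1.62, SE 0.05, adjusted p = 2.78e-09). TCF3 was 335 ± 21.9 CPM in Jurkat against 259 ± 11.98 CPM in HSB-2 and was not called (0.37). TCF4, a further E protein, was at 3942 counts in Jurkat and 1 count in HSB-2 (a CPM ratio of 7001, exact 95% counting interval 1256 to 276600). ID2, which binds E proteins and blocks their binding to DNA, was measured at 2.78 and 2.59 CPM in wild-type and 1.74 and 1.57 CPM in scrambled Jurkat cells and at 31.4 and 30.9 CPM in wild-type and 14.6 and 13.1 CPM in scrambled HSB-2 cells (log2 difference -3.37, SE 0.35, adjusted p = 1.24e-05). The related ID3 differed the other way, by 0.81, under 2-fold. RUNX1 (720.1 ± 11.4 CPM in Jurkat against 298 ± 57.5 CPM in HSB-2) and RUNX3 (46.8 ± 2.42 CPM in Jurkat against 289 ± 57.1 CPM in HSB-2), members of a family of partly interchangeable factors, went in opposite directions (1.27 and -2.63). TCF7 (1.29), LEF1 (1.04) and GATA3 (1.01), which commit progenitors to the T lineage, were called higher in Jurkat, and BCL11B (0.50) was not called. GATA3 lay at the limit and fell under 2-fold in wild-type samples only (0.92), without either wild-type replicate of Jurkat (0.99 and 0.97) and without either scrambled replicate of HSB-2 (0.94 and 0.95), and LEF1 did so without the second wild-type replicate of Jurkat (0.998). SOX13, a factor of gamma-delta T cells, differed by 8.28. TBX21, a factor of cytotoxic and helper cells, was higher in HSB-2 (-1.88).

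Both lines transcribed TAL1, but different LIM-only partners of it. TAL1 lies at chr1:47681962-47697897 (GRCh37, minus strand) and was measured at 365 and 369 CPM in wild-type and 286 and 292 CPM in scrambled Jurkat cells and at 114 and 117 CPM in wild-type and 97.2 and 102 CPM in scrambled HSB-2 cells (log2 difference 1.61, SE 0.10, adjusted p = 4.30e-07). LMO1, a LIM-only protein of the TAL1 complex, at chr11:8245856-8290263, was measured at 6.404 and 6.52 CPM in wild-type and 10.6 and 10.7 CPM in scrambled Jurkat cells and at 0.0257 and 0.0719 CPM in wild-type and 0 and 0.0223 CPM in scrambled HSB-2 cells (log2 difference 8.38, SE 0.49, adjusted p = 2.01e-07). LMO2, the related LIM-only protein, at chr11:33880122-33913623, was measured at 0 and 0.0332 CPM in wild-type and 0.0648 and 0.0633 CPM in scrambled Jurkat cells and at 14.98 and 13.9 CPM in wild-type and 17.6 and 17.5 CPM in scrambled HSB-2 cells (log2 difference -8.68, SE 0.35, adjusted p = 1.30e-08). LMO1 was thus read in Jurkat and LMO2 in HSB-2, each at or within a few counts of the floor in the other line. LYL1, the closest relative of TAL1, was also higher in HSB-2, at 1.59 ± 0.213 CPM in Jurkat against 9.202 ± 2.09 CPM in HSB-2 (log2 difference -2.53, SE 0.18, adjusted p = 9.52e-07). Of the shared partners, LDB1 (-0.67) and MYB (0.70) were not called and RUNX1 and GATA3 were higher in Jurkat, as above. Within 500 kb of the LMO2 start, 3 of 7 tested genes, LMO2 included, were higher in HSB-2 and 4 were not called. Within 500 kb of the LMO1 start, 3 of 9 were higher in Jurkat, LMO1 included, with TUB at 35.7 ± 4.21 CPM in Jurkat against 0.113 ± 0.0563 CPM in HSB-2, and 1 was higher in HSB-2. Of 21 tested genes of the TAL1 circuit (its partners and genes it is known to act on), 9 were higher in Jurkat and 2 in HSB-2. The share called in that list was 52.4%. Within 500 kb of the TAL1 start, 4 of 11 were higher in Jurkat, TAL1 included, with STIL, its neighbour (1.18). Near LCK, 24 of 29 tested genes were not called. Over all tested genes 31.9% were called, so these counts of neighbours are descriptions and not a result about the loci. MMADHCP2 overlaps ABTB2 near LMO2, and ENSG00000226252 overlaps TAL1, so the neighbours are not all separate.

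Of 29 tested oncogenic transcription factors of T-ALL, TAL1, LMO1, LMO2 and LYL1 included, 19 were higher in Jurkat and 4 in HSB-2 (65.5% and 13.8%), with a median difference of 5.17. TLX1 was listed at 0 to 0.0432 CPM, TLX3 at 0 and HOXA9 at 0 to 3 counts in the 8 samples, and these were not tested. HOXA9 overlaps a neighbouring HOXA gene in the annotation, so reads on it could have been set aside as ambiguous. Several of the 19 are HOXA genes of 1 locus. Each of the 10 tested genes of that cluster was called higher in Jurkat, and 7 of them had at most 3 counts in each HSB-2 sample, so that they passed the filter through Jurkat. HOXA7 had the highest CPM, a scale not divided by length, and was measured at 15.9 and 17.1 CPM in wild-type and 16.2 and 18.6 CPM in scrambled Jurkat cells and at 0.00428 and 0.0513 CPM in wild-type and 0 and 0 CPM in scrambled HSB-2 cells (log2 difference 10.79, SE 0.44, adjusted p = 1.40e-08). HOXA13, at the 5′ end of the cluster, was 6.86 ± 1.66 CPM in Jurkat against 0.0152 ± 0.0271 CPM in HSB-2. HOXA2, HOXA4, HOXA10 and HOXA11 stayed under 1 CPM in Jurkat. MEIS1, a cofactor of HOX proteins, was low but separate, at 1.65 ± 0.1503 CPM in Jurkat against 0.0184 ± 0.0243 CPM in HSB-2 (log2 difference 6.85, SE 0.59, adjusted p = 3.62e-06). MYCN was higher in Jurkat (17.8 ± 3.62 CPM in Jurkat against 3.397 ± 0.931 CPM in HSB-2, 2.40). MYC was higher in HSB-2, measured at 142 and 151 CPM in wild-type and 129 and 135 CPM in scrambled Jurkat cells and at 348 and 354 CPM in wild-type and 401 and 421 CPM in scrambled HSB-2 cells (log2 difference -1.45, SE 0.08, adjusted p = 1.33e-07). HHEX, a homeobox factor of early progenitors, was 0.773 ± 0.167 CPM in Jurkat against 39.3 ± 2.71 CPM in HSB-2 (-5.67). HOXA2, HOXA4, HOXA11 and HOXA13 are named after their values were seen.

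The tumour suppressor list showed 8 genes higher in HSB-2 and 5 in Jurkat of 42 tested (31.0% called, near the background). CDKN1A, a cyclin-dependent kinase inhibitor, was measured at 1.38 and 1.63 CPM in wild-type and 2.27 and 1.96 CPM in scrambled Jurkat cells and at 84.6 and 84.6 CPM in wild-type and 42.7 and 42.7 CPM in scrambled HSB-2 cells (log2 difference -5.14, SE 0.31, adjusted p = 2.27e-07). BAX, which promotes apoptosis, differed by -1.42. Both were higher in HSB-2. INPP5D, a lipid phosphatase that acts on PI3K products, differed by -1.20 (-0.92 in scrambled samples only). RB1 was higher in Jurkat, at 321 ± 62.98 CPM in Jurkat against 118 ± 12.8 CPM in HSB-2 (1.44). USP7, the gene targeted elsewhere in the series, was 386 ± 5.05 CPM in Jurkat against 226 ± 9.82 CPM in HSB-2 in these control cells (log2 difference 0.77, SE 0.05, adjusted p = 5.45e-07).

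The largest difference of the tumour suppressor list was that of a chromosome 2 gene that was almost unread in HSB-2. MSH6, a mismatch repair gene, was at 39956 counts in Jurkat and 3 in HSB-2 (a CPM ratio of 23650, exact 95% counting interval 8093 to 114700). Protein-coding genes around it were then examined, chosen after its values were seen. In chromosomal order, CALM2 had 8223 to 11367 counts in Jurkat samples and 0 to 18 in HSB-2 samples. EPCAM was at 0 in all 8 samples. KCNK12 had 21 to 33 counts in Jurkat samples and 0 in HSB-2, and FBXO11 had 2662 to 4138 against 0 to 4. The genes on both sides were read in both lines: TTC7A, before CALM2, was 86.5 ± 9.03 CPM in Jurkat against 39.8 ± 1.07 CPM in HSB-2, and FOXN2, after FBXO11, was 18.2 ± 1.65 CPM in Jurkat against 24.4 ± 1.97 CPM in HSB-2. CALM2, KCNK12, MSH6 and FBXO11 thus had at most 18 counts in any HSB-2 sample. DNA copy number was not measured here.

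**Figure D3:**
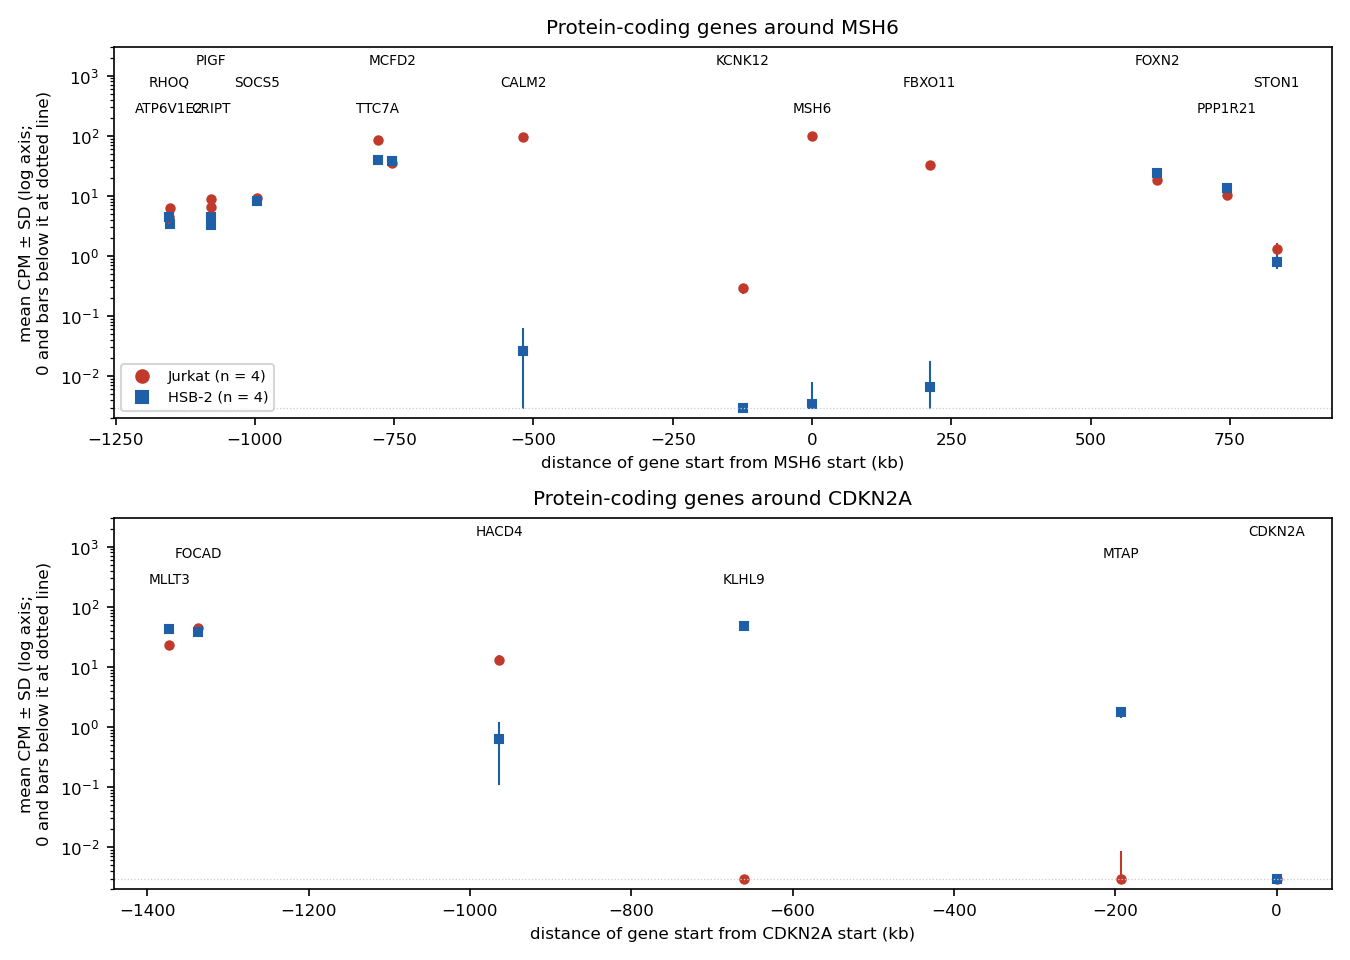
Mean CPM ± SD (log axis, n = 4 per line, with 0 and bars below it drawn at the dotted line) of selected protein-coding genes with at least 0.2 CPM in either line against the distance of their start from MSH6 (upper panel) and CDKN2A (lower panel, with CDKN2A itself at 0), red circles for Jurkat and blue squares for HSB-2. The HSB-2 means of CALM2, KCNK12, MSH6 and FBXO11 lie below 0.03 CPM, while KLHL9 and MTAP are read in HSB-2 and not in Jurkat.

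A stretch of chromosome 9 showed the reverse. CDKN2A, which encodes the p16 and p14ARF inhibitors of the cell cycle, had 0 counts in all 8 samples, and CDKN2B had 1 count in total. MTAP, the neighbouring methionine salvage gene, was at 1 count in Jurkat and 1198 in HSB-2 (a CPM ratio of 675, exact 95% counting interval 121 to 26670), and the antisense transcript CDKN2B-AS1 was at 3 against 5604 (a CPM ratio of 1052, exact 95% counting interval 359.7 to 5102). MTAP overlaps several other genes in the annotation, and its low level in HSB-2 of 1.74 ± 0.275 CPM is uncertain for that reason. CDKN2B-AS1 overlaps CDKN2A and CDKN2B on the opposite strand, and the strand setting of the counting is not given in the sources used here. Reads on CDKN2A and CDKN2B could therefore have been set aside as ambiguous. Further out, KLHL9, an adaptor of a ubiquitin ligase at chr9:21329664-21335403, had 0 counts in each Jurkat sample and 47.6 ± 4.79 CPM in HSB-2, at least 1552-fold higher in HSB-2. The interferon genes between KLHL9 and HACD4 had at most 2 counts in any sample. HACD4, beyond them, was read in Jurkat (13.1 ± 1.91 CPM in Jurkat against 0.627 ± 0.514 CPM in HSB-2). No count was thus assigned to CDKN2A in either line, within that limit. KLHL9, MTAP and CDKN2B-AS1 were read in HSB-2 alone, at most 3 counts of any of them being found in Jurkat. FOCAD and HACD4 lie on the far side of the interferon genes, and FOCAD was read in both lines (45.1 ± 2.54 CPM in Jurkat against 37.3 ± 1.67 CPM in HSB-2).

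NOTCH1 itself did not separate the lines. It was measured at 169 and 182 CPM in wild-type and 206 and 213 CPM in scrambled Jurkat cells and at 217 and 217 CPM in wild-type and 177 and 187 CPM in scrambled HSB-2 cells, with a difference of -0.05 (adjusted p = 0.64, 95% interval -0.24 to 0.13), and its sign differed between wild-type (-0.32) and scrambled samples (0.19). Its paralog NOTCH3 was measured at 110.2 and 123 CPM in wild-type and 133 and 138 CPM in scrambled Jurkat cells and at 0.2097 and 0.216 CPM in wild-type and 0.235 and 0.173 CPM in scrambled HSB-2 cells (log2 difference 9.24, SE 0.12, adjusted p = 2.45e-11). Target genes went both ways. DTX1, an E3 ligase induced by NOTCH, was measured at 67.7 and 70.9 CPM in wild-type and 85.6 and 85.9 CPM in scrambled Jurkat cells and at 0.432 and 0.236 CPM in wild-type and 0.0313 and 0.0892 CPM in scrambled HSB-2 cells (log2 difference 8.57, SE 0.47, adjusted p = 1.19e-07). HEY2, a repressor of the same family as HES1, had 3.57 ± 0.381 CPM in Jurkat and 0 counts in HSB-2, at least 188-fold higher in Jurkat. HES1, the classical NOTCH-induced repressor, was measured at 3.14 and 3.36 CPM in wild-type and 3.69 and 3.14 CPM in scrambled Jurkat cells and at 34.8 and 35.8 CPM in wild-type and 43.9 and 45.9 CPM in scrambled HSB-2 cells (log2 difference -3.59, SE 0.12, adjusted p = 2.54e-09). The ligand DLL1 (1.12 ± 0.203 CPM in Jurkat against 34.3 ± 13.4 CPM in HSB-2), the glycosyltransferase LFNG (1.19 ± 0.169 CPM in Jurkat against 28.5 ± 2.74 CPM in HSB-2) and the coactivator MAML3 (3.36 ± 0.854 CPM in Jurkat against 46.8 ± 2.51 CPM in HSB-2) were also higher in HSB-2. Of 40 tested genes of the NOTCH list, 12 were higher in Jurkat, 8 in HSB-2 and 20 were not called.

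Of 28 tested JAK-STAT and SOCS genes, 12 were called, each of them higher in HSB-2 (42.9% against a background of 15.7%), and 16 were not called, with a median difference of -0.56. The feedback inhibitors led the list. CISH, which STAT5 induces, was measured at 3.54 and 4.01 CPM in wild-type and 4.69 and 4.74 CPM in scrambled Jurkat cells and at 368 and 367 CPM in wild-type and 341 and 359 CPM in scrambled HSB-2 cells (log2 difference -6.40, SE 0.11, adjusted p = 5.63e-11). SOCS1 was measured at 2.398 and 2.48 CPM in wild-type and 2.17 and 1.65 CPM in scrambled Jurkat cells and at 83.5 and 89.2 CPM in wild-type and 77.7 and 80.4 CPM in scrambled HSB-2 cells (log2 difference -5.25, SE 0.13, adjusted p = 3.92e-10). SOCS3, from the same family, was measured at 4.898 and 3.79 CPM in wild-type and 3.44 and 4.03 CPM in scrambled Jurkat cells and at 67.6 and 66.95 CPM in wild-type and 86.8 and 88.1 CPM in scrambled HSB-2 cells (log2 difference -4.26, SE 0.14, adjusted p = 3.81e-09). PIM1, a kinase gene that STAT5 also induces, was measured at 14.1 and 13.6 CPM in wild-type and 18.2 and 18.1 CPM in scrambled Jurkat cells and at 650.3 and 652 CPM in wild-type and 459.9 and 478 CPM in scrambled HSB-2 cells (log2 difference -5.13, SE 0.17, adjusted p = 3.81e-09). All 4 were lower in every Jurkat sample than in any HSB-2 sample by a wide margin. JAK3 (38.9 ± 1.17 CPM in Jurkat against 187 ± 81.3 CPM in HSB-2, -2.27) and STAT5A (81.4 ± 29.2 CPM in Jurkat against 289 ± 39.6 CPM in HSB-2, -1.83) were higher in HSB-2 as well.

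The promoter of CISH, the JAK-STAT gene with the largest difference, is shown with each match to the STAT letters TTCNNNGAA, a palindrome read on either strand, in capitals.
CISH, chr3:50611725-50612024, GRCh38.p14, minus strand: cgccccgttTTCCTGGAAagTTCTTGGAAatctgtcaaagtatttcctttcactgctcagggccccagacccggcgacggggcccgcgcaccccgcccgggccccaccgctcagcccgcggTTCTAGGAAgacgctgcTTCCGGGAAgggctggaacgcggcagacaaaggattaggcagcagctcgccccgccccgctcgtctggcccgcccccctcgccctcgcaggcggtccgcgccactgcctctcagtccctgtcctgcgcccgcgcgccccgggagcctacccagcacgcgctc
This window held 4 matches, whereas 7.66% of the 35116 RefSeq windows held any, with a mean of 0.0818. Among list members with a RefSeq window, 2 of the 10 called higher in HSB-2 held a match (CISH and BCL6) and 0 of 15 that were not called. SOCS1, SOCS3 and PIM1 held none in this window. A gene counted if any of its windows held a match, and some genes had several windows. The 7.66% is a share of single windows, so these shares are not like for like.

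**Figure D4:**
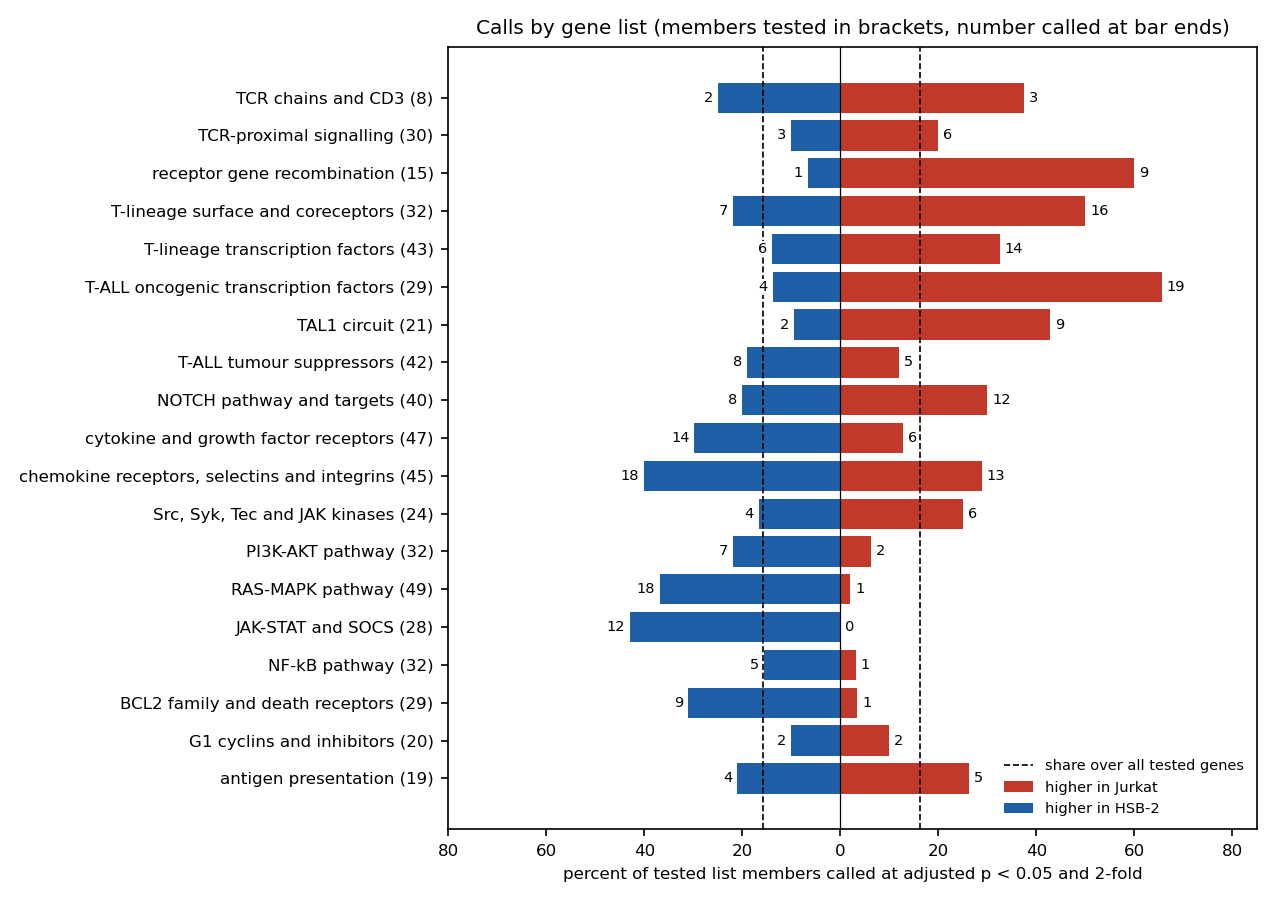
Share of the tested members of each gene list called at an adjusted p under 0.05 and 2-fold, to the right (red) where higher in Jurkat and to the left (blue) where higher in HSB-2, with the number called at the bar end and dashed lines at the shares over all tested genes. Recombination, surface and oncogenic transcription factor genes lean to Jurkat, and RAS-MAPK, JAK-STAT and BCL2 family genes lean to HSB-2.

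Of 47 tested cytokine and growth factor receptors, 14 were higher in HSB-2 (29.8%) and 6 in Jurkat (12.8%). IL2RB, the shared beta chain of the IL-2 and IL-15 receptors, was measured at 1.11 and 1.06 CPM in wild-type and 0.874 and 0.801 CPM in scrambled Jurkat cells and at 43.5 and 41.8 CPM in wild-type and 16.97 and 17.1 CPM in scrambled HSB-2 cells (log2 difference -4.95, SE 0.38, adjusted p = 1.52e-06), higher in wild-type than in scrambled HSB-2 cells. TNFRSF1B, a TNF receptor, was 1.22 ± 0.283 CPM in Jurkat against 153 ± 7.74 CPM in HSB-2 (-6.97), and IL1R1 differed by -6.04. IL18R1 had 3 counts in Jurkat and 523 in HSB-2 (a CPM ratio of 98.2, exact 95% counting interval 33.4 to 478). The stem cell factor receptor KIT was 18.6 ± 5.65 CPM in Jurkat against 83.4 ± 7.35 CPM in HSB-2 (-2.16). IL7R, on which thymocytes depend, went the other way. It was measured at 8.21 and 7.56 CPM in wild-type and 8.86 and 10.2 CPM in scrambled Jurkat cells and at 0.0214 and 0 CPM in wild-type and 0 and 0 CPM in scrambled HSB-2 cells (log2 difference 10.10, SE 0.45, adjusted p = 2.43e-08). IL2RA stayed between 0.985 and 2.04 CPM in all samples (-0.64, not called at 2-fold).

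Of 49 tested RAS-MAPK genes, 18 were higher in HSB-2 (36.7%), 1 was higher in Jurkat and 30 were not called, with a median difference of -0.51. DUSP6, a phosphatase that ERK activity induces and that shuts ERK off, was measured at 2.23 and 2.16 CPM in wild-type and 2.72 and 2.82 CPM in scrambled Jurkat cells and at 956 and 987 CPM in wild-type and 693 and 697 CPM in scrambled HSB-2 cells (log2 difference -8.39, SE 0.19, adjusted p = 3.27e-10). ETV4 (0.703 ± 0.476 CPM in Jurkat against 33.4 ± 5.62 CPM in HSB-2) and FOSL1 (0.0948 ± 0.0445 CPM in Jurkat against 3.88 ± 0.749 CPM in HSB-2), transcription factors downstream of ERK, and the phosphatase DUSP4 (0.609 ± 0.227 CPM in Jurkat against 11.5 ± 6.75 CPM in HSB-2) followed it. The exception was DUSP16, a phosphatase of JNK and p38 (12.9 ± 0.782 CPM in Jurkat against 2.51 ± 1.19 CPM in HSB-2, 2.36). ETV4 was lower in wild-type than in scrambled Jurkat cells, and DUSP4 was lower in scrambled than in wild-type HSB-2 cells.

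In the PI3K-AKT pathway, 7 of 32 tested genes were higher in HSB-2 and 2 in Jurkat, near the background in sum (28.1% called). PIK3CD, the leukocyte catalytic subunit, was 56.01 ± 2.82 CPM in Jurkat against 293 ± 34.7 CPM in HSB-2 (-2.39). INPP4B, a phosphatase of PI3K products, was measured at 0.0680 and 0.0553 CPM in wild-type and 0.0432 and 0.0422 CPM in scrambled Jurkat cells and at 17.4 and 18.9 CPM in wild-type and 20.5 and 18.7 CPM in scrambled HSB-2 cells (log2 difference -8.45, SE 0.15, adjusted p = 6.46e-11). PIK3R3, a regulatory subunit, was higher in Jurkat, at 113 ± 5.05 CPM in Jurkat against 50.98 ± 4.51 CPM in HSB-2 (1.15, and 0.98 in scrambled samples only). Of 24 tested kinases of the Src, Syk, Tec and JAK families and others such as MATK and PTK2, 6 were higher in Jurkat. A further 4 were higher in HSB-2 and 14 were not called (41.7% called, against 31.9% over all genes). SYK, the relative of ZAP70, was measured at 138 and 141 CPM in wild-type and 159 and 157 CPM in scrambled Jurkat cells and at 0.111 and 0 CPM in wild-type and 0 and 0 CPM in scrambled HSB-2 cells (log2 difference 11.96, SE 0.45, adjusted p = 7.93e-09). MATK, which phosphorylates the inhibitory site of Src-family kinases, had 2 counts in Jurkat and 55651 in HSB-2 (a CPM ratio of 15670, exact 95% counting interval 4337 to 129400). PTK2, the focal adhesion kinase, was higher in Jurkat (5.86), and LYN in HSB-2 (-6.52).

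Trafficking and adhesion genes were called often in both directions: 18 of 45 tested were higher in HSB-2 and 13 in Jurkat (68.9% called, against 31.9% over all genes). CD44, the hyaluronan receptor, was measured at 0.179 and 0.221 CPM in wild-type and 0.0648 and 0.0949 CPM in scrambled Jurkat cells and at 201 and 203 CPM in wild-type and 154 and 156 CPM in scrambled HSB-2 cells (log2 difference -10.29, SE 0.23, adjusted p = 3.30e-10). CCR7, a chemokine receptor that brings lymphocytes into lymph nodes, was measured at 3.56 and 3.24 CPM in wild-type and 3.41 and 3.28 CPM in scrambled Jurkat cells and at 50.9 and 49.2 CPM in wild-type and 40.3 and 39.8 CPM in scrambled HSB-2 cells (log2 difference -3.74, SE 0.10, adjusted p = 9.16e-10). CCR4, another chemokine receptor, was the reverse, measured at 21.6 and 21.1 CPM in wild-type and 19.2 and 19.8 CPM in scrambled Jurkat cells and at 0.274 and 0.216 CPM in wild-type and 0.0782 and 0.0780 CPM in scrambled HSB-2 cells (log2 difference 6.98, SE 0.34, adjusted p = 5.19e-08). CXCR4, the marrow-homing receptor, was higher in Jurkat (320.3 ± 40.04 CPM in Jurkat against 121 ± 19.2 CPM in HSB-2, 1.40). PTGER2, a prostaglandin receptor, had 0 counts in Jurkat and 14.8 ± 4.42 CPM in HSB-2, at least 482-fold higher in HSB-2.

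Of 29 tested BCL2 family and death receptor genes, 9 were higher in HSB-2 (31.0%) and 1, BOK (1.31), in Jurkat. BCL2, which blocks apoptosis, was measured at 37.3 and 35.4 CPM in wild-type and 48.98 and 51.7 CPM in scrambled Jurkat cells and at 204 and 209 CPM in wild-type and 168 and 162 CPM in scrambled HSB-2 cells (log2 difference -2.10, SE 0.14, adjusted p = 5.51e-07). Of pro-apoptotic members, HRK (-2.78) and BAX (-1.42) were also higher in HSB-2, while BOK was the gene higher in Jurkat, and BOK fell under 2-fold in wild-type samples only (0.83). BCL2L1 was not called at 2-fold (-0.44). Of 20 tested G1 genes, 2 were higher in each line: CCND2, a D-type cyclin, was 12.7 ± 4.92 CPM in Jurkat against 0.192 ± 0.166 CPM in HSB-2 (6.20), with RB1 as above, and CCND1 was 0.241 ± 0.0834 CPM in Jurkat against 1.45 ± 0.906 CPM in HSB-2 (-2.58), with CDKN1A as above. Of 32 NF-kB genes, 5 were higher in HSB-2 and 1 in Jurkat. In antigen presentation, 5 of 19 tested genes were higher in Jurkat and 4 in HSB-2 (47.4% called, against 31.9% over all genes). The class I genes HLA-B (-1.55) and HLA-E (-1.26) were higher in HSB-2, and low-level class II genes such as HLA-DQB1 (1.996 ± 0.339 CPM in Jurkat against 0.0841 ± 0.0566 CPM in HSB-2) were higher in Jurkat. HLA genes share reads between near-identical copies and carry alleles that differ from the reference, so their levels are uncertain.

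Markers of other lineages were examined in the same way, beside shares over all tested genes of 16.3% higher in Jurkat and 15.7% higher in HSB-2. Of 8 tested B-lineage markers, 5 were higher in Jurkat and 2 in HSB-2, and their summed level was 39.5 to 68.5 CPM in Jurkat and 1.55 to 3.92 CPM in HSB-2. Most of this was CD79A, a B-cell receptor chain, at 48.9 ± 15.7 CPM in Jurkat against 0.923 ± 0.503 CPM in HSB-2 (5.77), while MS4A1 and CD22 were too low to test and PAX5 was 0.0515 ± 0.0243 CPM in Jurkat and 1.19 ± 0.643 CPM in HSB-2. Among 10 tested NK and cytotoxic markers, 5 were higher in Jurkat, led by GZMK (8.44), and 3 in HSB-2. GNLY, a cytolytic granule protein, was measured at 0.119 and 0.0664 CPM in wild-type and 0.119 and 0.222 CPM in scrambled Jurkat cells and at 71.00 and 69.02 CPM in wild-type and 12.2 and 14.03 CPM in scrambled HSB-2 cells (log2 difference -8.29, SE 0.85, adjusted p = 1.22e-05). NKG7, also a granule protein, was 6.600 ± 1.51 CPM in Jurkat against 103 ± 32.02 CPM in HSB-2 (-3.96). Both were higher in wild-type than in scrambled HSB-2 cells. Of 10 tested early progenitor markers, 4 were higher in each line: MECOM, MEIS1, BCL11A and CD34 in Jurkat, and HHEX, LYL1, KIT and IL1RAP in HSB-2. Of 7 tested myeloid markers 2 were higher in Jurkat and 1 in HSB-2, and MPO, ELANE, CSF1R and LYZ were too low to test. Of 7 erythroid and megakaryocytic markers 2 were higher in Jurkat and 4 in HSB-2, mainly the transferrin receptor TFRC (-1.80), and of 3 epithelial and fibroblast markers 1, KRT8, was higher in Jurkat. The part of any other cell type in these results was not tested.

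Among protein-coding genes averaging 5 CPM or more over the samples, the largest fold differences were between full and near-zero transcription. Beside MSH6 and KLHL9, given above, some of the 12 genes with the largest fold in each direction are named here. Higher in Jurkat were PNMA8A (27.3 ± 1.203 CPM against 0 counts, at least 1438-fold higher), TSPYL5, the potassium channel KCNK1, the neural crest and neuronal factor SOX11 (10.9 ± 2.42 CPM against 0 counts), the GDNF receptor GFRA1 and the RNA-binding protein IGF2BP1. Higher in HSB-2 were PLXDC2 (58.8 ± 1.23 CPM against 0 counts, at least 1917-fold higher), DOCK8, an exchange factor for CDC42 in lymphocytes (0.0150 ± 0.0204 CPM in Jurkat against 599 ± 54.2 CPM in HSB-2), AHR, the aryl hydrocarbon receptor (126 ± 33.6 CPM against 1 count in Jurkat), the LIM protein TES and the calcium-binding protein S100A6. By the difference in CPM, Jurkat was led by MYO7B (1922 ± 161 CPM in Jurkat against 535 ± 146 CPM in HSB-2), CHI3L2 (1141 ± 348 CPM in Jurkat against 31.4 ± 2.67 CPM in HSB-2), the linker histone H1-2 and ADA, the adenosine deaminase of purine salvage (950.5 ± 93.3 CPM in Jurkat against 170.4 ± 16.97 CPM in HSB-2). HSB-2 was led by GLUL, glutamine synthetase (528 ± 58.1 CPM in Jurkat against 4209 ± 645 CPM in HSB-2), AHNAK (76.4 ± 40.9 CPM in Jurkat against 1483 ± 344 CPM in HSB-2), the stearoyl-CoA desaturase SCD and vimentin (VIM, 700.0 ± 27.6 CPM in Jurkat against 2026 ± 183 CPM in HSB-2).

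The line difference depended on the control used for many genes. A test of the interaction of line and condition (wild-type or scrambled) gave an adjusted p under 0.05 for 6287 of 20390 genes (30.8%). That test had 2 samples per group and, unlike the calls, no fold limit. The spread between those samples, which its p-values measure, may be technical. Of 220 named genes, 5 had a difference of opposite sign in wild-type and scrambled samples. CD69, an early activation antigen, was measured at 26.7 and 25.9 CPM in wild-type and 58.2 and 50.6 CPM in scrambled Jurkat cells and at 91.97 and 98.5 CPM in wild-type and 25.99 and 24.7 CPM in scrambled HSB-2 cells. It was thus lower in Jurkat than in HSB-2 in wild-type cells (-1.87) and higher in scrambled cells (1.09), and over both the difference of -0.58 did not pass the test (adjusted p = 0.31). EGR2, an immediate early factor, was measured at 0.561 and 0.4205 CPM in wild-type and 1.79 and 2.07 CPM in scrambled Jurkat cells and at 15.4 and 14.5 CPM in wild-type and 1.71 and 1.64 CPM in scrambled HSB-2 cells. Its difference was -4.92 in wild-type and 0.20 in scrambled samples, so that its call of -2.78 (adjusted p = 0.0142) rested on the wild-type samples. CD38 (0.22 and -0.53), NOTCH1 and FLT3 were the other 3, none of them called over both conditions.

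**Figure D5:**
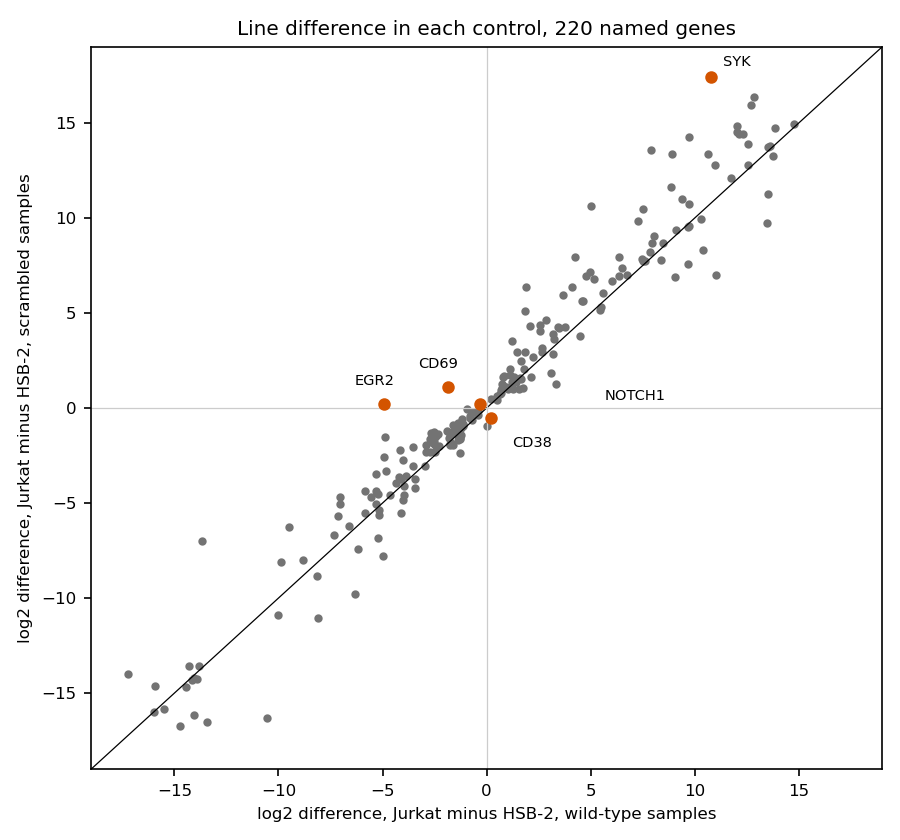
Log2 difference of Jurkat minus HSB-2 for 220 named genes in wild-type samples (x axis) and in scrambled samples (y axis), with the line of equality. Most genes keep their sign in both, CD69, EGR2, NOTCH1 and CD38 do not, and SYK lies off the line at the upper right, where the scrambled HSB-2 samples had 0 counts.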

How the data were processed

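Ribosomal-RNA-depleted stranded RNA-seq libraries of 2 T-ALL lines were compared. The authors deposited 1 table of whole-number counts per gene from HTSeq 0.6.1p1, and the submitters' processing notes also name CASAVA, STAR, BWA and the build hg19. The strand setting of the counting and the annotation release are not given in the sources used here. The deposited Ensembl IDs were joined by base ID to GENCODE 44 mapped to GRCh37, which held 55538 (96.1%) of 57820, and V segment sequences were read from GRCh37. Promoter windows are those of RefSeq on GRCh38.p14.

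Counts of the 8 control samples were fitted in edgeR 4.0.16 (R 4.3.3) with TMM scaling, a low-count filter (filterByExpr, minimum count 10 in 4 samples) and the quasi-likelihood test of line, Jurkat minus HSB-2, with wild-type and scrambled samples as replicates of a line, so that their difference is part of the error. Adjusted p is Benjamini-Hochberg over all 20299 genes tested, and a call needs adjusted p under 0.05 and at least 2-fold. Genes of chromosomes X and Y (662) and those without an annotated chromosome (723) were left out of counts and names. The interaction of line and condition was tested in a 4-group fit. On simulated counts of 19993 genes, the line test recovered 77 of 100 genes changed by log2 1 and 99 of 100 changed by log2 2, with 6 false calls among 19793 unchanged genes. The simulated samples held no difference between wild-type and scrambled cells and few changed genes, unlike these data. Those rates therefore do not carry over to the calls made here. Ratios against a line with 1 to 3 counts carry exact counting intervals, and a line at 0 counts was set to 3 counts per sample, a floor that covers counting error only.

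Named genes are a core list, up to 4 called members of each list in each direction, the 12 largest folds and the 6 largest CPM differences in each direction, the neighbours of 5 loci within 500 kb, and the 5 largest interactions. BCL6, CD1C, list members too low to test, and the genes of the chromosome 2 and 9 regions fall outside that rule and were chosen after their values were seen. The genes compared, the lists and the core genes were chosen with earlier results of these data known. DESeq2 1.42.0, other scalings and filters, single conditions, left-out samples and a replicate block were the alternatives. TRAC, TRBC1, PECAM1, PIK3R6, IKBKE and CD24 were not matched by ID and were not analysed here. Some list members are counted but not reported here by name.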

Additional observations from a re-analysis of the deposited data

Results flagged for a closer look

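For the 5 genes with the largest interaction of line and condition, the difference between the lines was not the same in wild-type and scrambled samples by edgeR's quasi-likelihood test of the interaction. The interaction was 6.63 on the log2 scale for SYK, 6.68 for ENSG00000267074, -5.75 for PRDM16-DT, 5.68 for ADCYAP1 and 5.59 for PI16. In each of them 1 line was at or near the floor: SYK had 0.111 CPM in 1 wild-type HSB-2 sample and 0 in the other 3, ENSG00000267074 at most 0.0755 CPM in Jurkat, PRDM16-DT at most 0.0425 CPM in Jurkat, ADCYAP1 0.128 and 0.195 CPM in wild-type and at most 0.00557 CPM in scrambled HSB-2 cells, and PI16 1.53 and 1.33 CPM in wild-type and at most 0.0365 CPM in scrambled HSB-2 cells. The fitted sizes therefore depend on a few counts and on the prior count of the fit. In the other line the same genes were well read, for example SYK at 138 to 159 CPM in Jurkat and PRDM16-DT at 50.8 to 73.7 CPM in HSB-2.

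In none of 163 groups of 4 samples examined did 1 sample stand apart from the others by Dixon's ratio, a rule that flags about 1 in 20 groups by chance. The rule can hardly flag a sample where wild-type and scrambled samples form separate pairs, as IL2RB did in HSB-2. The absence of flags is therefore weak evidence that no sample stood apart.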

How the results depend on the processing

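Of 4098 values of 220 named genes under the alternatives, 6 had the opposite sign: NOTCH1 (0.194), CD69 (1.09) and EGR2 (0.20) in scrambled samples only, CD38 (0.221) and FLT3 (0.0022) in wild-type samples only, and NOTCH1 without the first Jurkat wild-type replicate (0.0072). A further 6 lost an adjusted p under 0.05 and 8 gained one. Of 3680 values of the 198 genes called at 2-fold, 45 values in 15 genes lost the call, most of them just under 2-fold, CD3G, GATA3 and RPS3A the most often. The number of called genes was 6042 and fell to 3574 (1731 higher in Jurkat, 1843 in HSB-2) when at least 10 counts were required in every sample, which leaves out genes silent in 1 line and so tests fewer genes. Under the other alternatives it lay between 4359, for a test against a 2-fold minimum, and 8204, for all genes with at least 1 count, and leaving out 1 sample at a time gave 6177 to 6324. DESeq2 called 6045 genes and upper-quartile scaling 6023. The interaction count was 6287, with 4863 to 6293 when 1 sample was left out. With a replicate block, 6000 genes were called (3056 higher in Jurkat and 2944 in HSB-2), and 6790 had an interaction. Same-numbered samples deviated together with correlations of -0.05 to 0.15 and over 0.1 in 3 of 6 pairs of groups, which does not reach the criterion of every pair being over 0.1, so the numbers were not taken to pair the samples. EGR2 had an adjusted p of 0.0697 with condition as a second term, and FCER1G (0.0699), S100A9 (0.0646) and HBA1 (0.0578) missed the threshold in scrambled samples only.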

Other observations

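Gene families outside the lists were counted after their values were seen, so the counts are descriptions. Over all tested genes, 16.3% were called higher in Jurkat and 15.7% higher in HSB-2. Zinc finger genes with a ZNF symbol on chromosome 19, most of them KRAB repressors that lie in clusters, were more often higher in HSB-2: 69 of 217 tested were called higher there and 10 higher in Jurkat, with a median log2 difference of -0.39. ZNF genes of other chromosomes were nearly balanced, with 31 higher in HSB-2 and 28 in Jurkat of 213, and a median of -0.03. On chromosome 19 as a whole, 12.1% of 1051 tested protein-coding genes were higher in Jurkat and 18.4% in HSB-2. ZNF486, ZNF649 and ZNF577 had 0 counts in all 4 Jurkat samples and were at least 571, 532 and 514-fold higher in HSB-2. Zinc finger genes of these clusters share near-identical stretches, so reads may be divided between them.

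Clustered protocadherins, adhesion genes that share exons, were higher in HSB-2 in 12 of 18 and in Jurkat in 3. Of 8 tested S100A genes, which encode calcium-binding proteins, 5 were higher in HSB-2 and 2 in Jurkat. Histone genes went the other way, with 10 of 36 higher in Jurkat and 0 in HSB-2 (median 0.51). Ribosomal protein genes had a median difference of 0.44, with 6 of 76 called higher in Jurkat and 1 in HSB-2. Both of these ribosomal shares lay under the shares over all tested genes. Of 8 tested HOXB genes, 2 were higher in Jurkat and 4 in HSB-2, unlike the HOXA genes.

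Runs of at least 3 adjacent tested protein-coding genes with at most 3 counts in each sample of 1 line and at least 1 CPM in the other were rare. HSB-2 had 1, HOXD13, HOXD12 and HOXD8 on chromosome 2. Jurkat had 2, the keratin genes KRT7, KRT86 and KRT81 on chromosome 12, and MDFIC, TFEC and TES on chromosome 7.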
